A study of Mus musculus with 2 samples.

Results

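Subclusters 6 and 8 are nuclei of mature oligodendrocytes from mouse brainstem that the deposited clustering put apart almost entirely by library. Their members were taken as every nucleus in the oligodendrocyte cluster of the deposited cell annotation whose subcluster at clustering resolution 0.8 is 6 or 8. They number 1726 of 4149 oligodendrocyte nuclei and of 18281 nuclei in all, with 866 in subcluster 6 and 860 in subcluster 8. The single-nucleus RNA sequencing covered 1 library from 1 wild-type mouse (WT) and 1 library from 1 heterozygous Scn1a A1783V/WT mouse (HET), both female, untreated and taken at postnatal day 41. HET animals carry the human Dravet syndrome variant in a sodium channel gene expressed mainly by neurons, and were made by crossing males with a floxed-stop Scn1a A1783V allele with Sox2-cre females on a C57BL/6J background, so that Cre acted in the early embryo. With 1 animal per genotype, genotype, animal and library cannot be told apart, no test between the libraries was possible, and every interval below covers counting error only.

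Oligodendrocytes wrap axons in myelin. Their precursors leave the cell cycle, pass through a newly formed stage that carries Enpp6, Bcas1 and Tcf7l2, and then hold high levels of the myelin genes Mbp, Mog and Mag for life. Mature oligodendrocytes are not uniform: in the mouse brain and spinal cord, some carry Ptgds, which makes prostaglandin D2, together with Il33, while others carry Klk6, a secreted protease, with Hopx and Anxa5. Opalin encodes a membrane protein of myelin that is particular to oligodendrocytes.

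Both subclusters matched their label. Mog, a myelin surface protein, was at 807 counts scaled per 1000000 UMIs (CPM) in the HET nuclei of 6 and at 1021 CPM in the WT nuclei of 8, against 917 CPM in HET and 948 CPM in WT in subcluster 2, the largest oligodendrocyte subcluster. Mag, a myelin adhesion protein, was at 1081 CPM in 6 and 1148 CPM in 8. A Mog UMI was found in 82.6% of the 827 HET nuclei of 6 (exact 95% interval 79.8 to 85.1) and in 88.7% of the 825 WT nuclei of 8 (86.4 to 90.8). Neuronal nuclei, which should lack Mog, held a Mog UMI in 19.9% of cases in either library at median depths of 7729 and 8390 UMIs, against 2241 in 6 and 2356 in 8. With every nucleus thinned to 1000 UMIs the shares were 54.6% in 6 and 62.7% in 8, against 3.33% and 3.18% in WT and HET neurons. The reference label deposited with each nucleus was oligodendrocyte for 862 of 866 nuclei in 6 and for 854 of 860 in 8.

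The 2 libraries were sequenced to similar totals, 70301390 UMIs in 9259 WT nuclei and 66176778 UMIs in 9022 HET nuclei. No nucleus had fewer than 990 genes or more than 14.9% mitochondrial counts, and only nuclei that the authors called single were deposited. A set of 23 barcode sequences occurred in both libraries, and 0 of them joined a nucleus of 6 to a nucleus of 8. Both subclusters were shallower than the other oligodendrocytes: the median was 2241 UMIs in the HET nuclei of 6 and 2356 UMIs in the WT nuclei of 8, against 3360 and 3122.5 UMIs in subcluster 2 of HET and WT, and 3371 and 4627 UMIs in subcluster 7. The median deposited mitochondrial share was 1.06% in the HET nuclei of 6 and 0.754% in those of 2, and 0.848% in the WT nuclei of 8 and 0.599% in those of 2. The median ribosomal protein share was likewise higher in 6 than in 2 of HET (0.679% and 0.531%) and in 8 than in 2 of WT (1.2% and 0.913%). The part that these depth and quality values play in the gene values below was not tested beyond the use of nuclei with at least 2000 UMIs alone, thinning to 1000 UMIs and totals without ribosomal protein genes.

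Subcluster 6 held 827 HET and 39 WT nuclei, so that 95.5% of it came from HET (exact 95% interval 93.9 to 96.8). Subcluster 8 was its mirror image, with 825 WT and 35 HET nuclei, 95.9% of them from WT (94.4 to 97.1). Subcluster 6 made up 34.7% of the HET oligodendrocyte nuclei (32.8 to 36.7) and 2.21% of the WT ones (1.57 to 3.0). Subcluster 8 made up 46.7% of the WT oligodendrocyte nuclei (44.3 to 49.0) and 1.47% of the HET ones (1.03 to 2.04). Joined, 6 and 8 held 862 HET and 864 WT nuclei, which is 36.2% of HET oligodendrocytes (34.3 to 38.2) and 48.9% of WT oligodendrocytes (46.5 to 51.3). Subcluster 2 was divided far more evenly, with 789 HET and 768 WT nuclei, and subcluster 7 was mostly HET, with 730 HET and 133 WT nuclei.

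**Figure D1:**
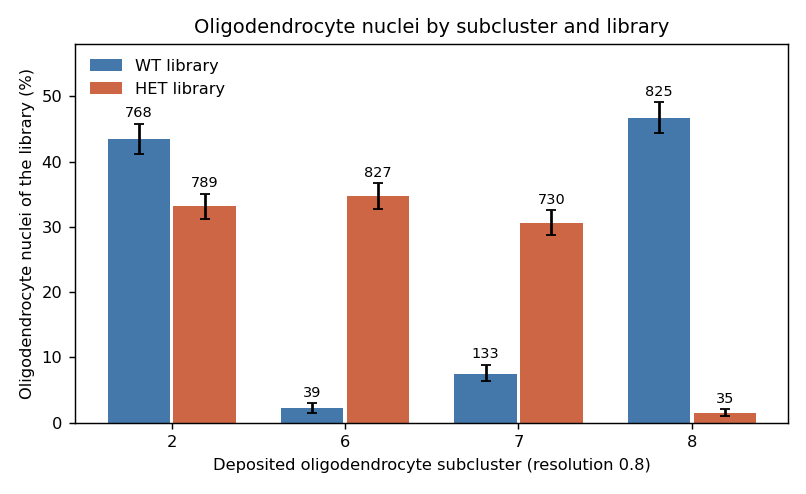
Share of each library's oligodendrocyte nuclei (vertical axis, percent) in deposited subclusters 2, 6, 7 and 8, with exact 95% binomial intervals as bars and the number of nuclei above each column. Subclusters 6 and 8 are each filled by a single library (827 HET and 825 WT nuclei), while subcluster 2 holds similar numbers from both (789 and 768).

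The split between 6 and 8 depended on the resolution of the deposited clustering. At resolution 0.6, a single cluster held 864 of the 866 nuclei of 6 and 808 of the 860 nuclei of 8, with 1 nucleus of 7 and 0 nuclei of 2, and that cluster was made of 858 HET and 816 WT nuclei. At resolution 0.3 the cluster that held 865 nuclei of 6 and 786 of 8 also took in 851 of the 863 nuclei of 7 but no more than 2 of the 1557 nuclei of 2. From resolution 0.7 up to 1.5, at most 1.06% of the pairs made of a nucleus of 6 and a nucleus of 8 fell in the same cluster. In the clustering that the authors deposited from the other normalisation of the same counts, also at resolution 0.8, 34.8% of such pairs shared a cluster, against 11.1% of pairs of 6 with 7 and 22.1% of pairs of 6 with 2. All of these clusterings used the same nuclei, so they are alternative groupings and not independent evidence.

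Set against each other directly, 6 and 8 differed at few genes. Their UMIs were summed, and of 3665 genes with at least 200 UMIs in the 2 sums together, 34 were at least 2-fold higher in 6 (0.928%) and 38 at least 2-fold lower (1.04%). Setting the median ratio of all genes to 0, from -0.05, gave 46 higher and 22 lower. Because the clustering used these genes, the values are a description and carry no test. Sgk1, a kinase induced by glucocorticoids and stress (chr10:21882184-21999903 in GRCm38, plus strand), was furthest up, at 127 CPM in the HET nuclei of 6 and 24.6 CPM in the WT nuclei of 8. Its log2 ratio over all nuclei was 2.29 (95% interval 1.87 to 2.74). Next came Gm9968 at 2.01, Nrg3os, Gm44866, Gm26673 and Gm48249, all non-coding genes, and Zbtb16, a zinc finger transcription factor, at 1.52 (1.18 to 1.87). At the other end stood Ttr, which encodes the transthyretin that the choroid plexus secretes (chr18:20665280-20674321, plus strand), at 121 CPM in 6 of HET and 930 CPM in 8 of WT and a log2 ratio of -2.60 (-2.78 to -2.43). Cryab, a small heat shock protein abundant in oligodendrocytes, followed at 94.1 and 299.5 CPM (log2 ratio -1.62, interval -1.86 to -1.38), then the ribosomal protein genes Rpl18 at -1.37 and Rps16 at -1.30 and the complex I subunit gene Ndufa7 at -1.19.

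The genes that separated 6 from 8 mostly differed in the same direction between the libraries inside a subcluster that both libraries share, and 36 of the 72 were 2-fold apart there too. Between the 789 HET and 768 WT nuclei of subcluster 2, 37 of 4548 genes were at least 2-fold higher in HET (0.814%) and 49 at least 2-fold lower (1.08%), or 50 and 34 with the median ratio set to 0. The 34 genes higher in 6 had a median log2 ratio of 1.18 between 6 and 8 and of 1.07 between HET and WT in subcluster 2, where 33 of them were above 0 and 18 at least 2-fold. In subcluster 7 their median was 0.95, with 32 of 34 above 0 and 16 at least 2-fold. Over all 11383 genes with at least 20 UMIs in 7, 524 were at least 2-fold higher in HET (4.60%) and 452 at least 2-fold lower (3.97%). The 38 genes lower in 6 had a median of -1.07 between 6 and 8, of -0.96 between HET and WT in 2 and of -0.56 in 7, with 38 and 36 of 38 below 0 and 18 and 4 at least 2-fold lower. The 3 comparisons use different nuclei but the same 2 libraries, so this likeness says nothing on genotype. Over the 3547 genes measured in both, the median absolute log2 ratio was 0.22 for 6 over 8 and 0.22 for HET over WT in 2, and the median absolute difference of the 2 ratios was 0.14.

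Single genes followed the same course. Sgk1 was at 69.0 CPM in HET and 14.7 CPM in WT in subcluster 2 (log2 ratio 2.23, 1.73 to 2.76) and at 117 and 30.8 CPM in subcluster 7. Ttr was at 83.6 CPM in HET and 669 CPM in WT in subcluster 2 (log2 ratio -3.00, -3.20 to -2.80). Ttr was lower in HET than in WT in the other cell classes examined too, with 28.8 CPM in HET and 235 CPM in WT in neuronal nuclei, which do not make transthyretin, and 943 and 8448 CPM in ependymal nuclei. In the deposited cluster epend.2, which held most of the ependymal Ttr UMIs, the levels were nearer, at 9407 CPM in HET and 16770 CPM in WT. A gene that went another way was Gpc6, which encodes a cell surface proteoglycan, with a log2 ratio of 1.4 between 6 and 8 (1.00 to 1.82) and of -0.01 between HET and WT in 2 (-0.41 to 0.39). Etl4 was at 1.36 between 6 and 8 and 0.97 in subcluster 2, but at 57.4 CPM in HET and 64.9 CPM in WT in subcluster 7.

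**Figure D2:**
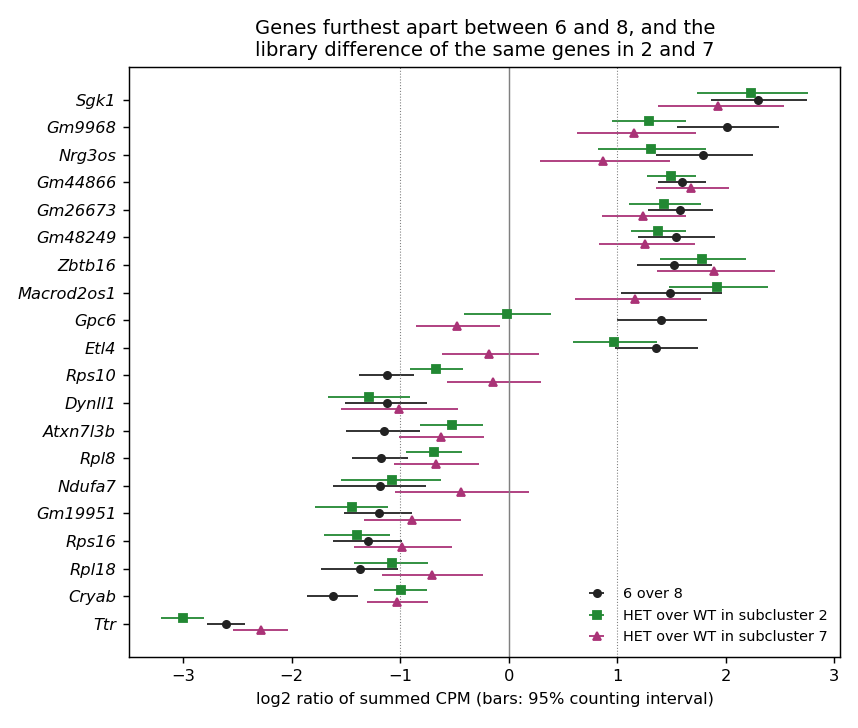
The 10 genes highest and the 10 lowest in 6 against 8 (vertical axis) with their log2 ratio (horizontal axis) of 6 over 8 (black circles), of HET over WT in subcluster 2 (green squares) and of HET over WT in subcluster 7 (purple triangles), and 95% counting intervals as bars. For Sgk1 and Ttr the ratios in 2 (2.23 and -3.00) lie near those of 6 over 8 (2.29 and -2.60), whereas Gpc6 is at 1.4 in 6 over 8 and at -0.01 in 2.

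The few nuclei that sat in the subcluster of the other library give a comparison of 6 with 8 inside a library. The clustering chose these 39 WT and 35 HET nuclei by their expression, so they are described only. The 34 genes higher in 6 summed to 5680 CPM in the HET nuclei of 6 and 4947 CPM in the HET nuclei of 8, but to 2373 CPM in the WT nuclei of 6 and 2241 CPM in the WT nuclei of 8. For these genes, picked for the gap between 6 and 8, the sums lay nearer within a library than between the libraries. In subcluster 2 they summed to 4928 CPM in HET and 2347 CPM in WT. The log2 ratio of 6 over 8 for this sum was 0.20 inside HET (0.06 to 0.34) and 0.08 inside WT (-0.12 to 0.28), against 1.23 with the libraries mixed (1.18 to 1.28). Taken singly, 23 of the 34 genes were higher in 6 inside HET and 17 inside WT. The 38 genes lower in 6 kept a larger gap: they summed to 2480 CPM in 6 and 4399 CPM in 8 inside HET, and to 4379 CPM in 6 and 6169 CPM in 8 inside WT. Those sums give log2 ratios of -0.83 in HET (-0.98 to -0.68) and -0.49 in WT (-0.64 to -0.35), and leaving out Ttr gave -0.86 and -0.50. Sgk1 rests on 3 UMIs in the HET nuclei of 8 and could not be placed there, with a counting interval on the log2 ratio inside HET from 0.36 to 4.22.

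The gene lists show which functions the gap between 6 and 8 touched. All 73 measured genes of oxidative phosphorylation were lower in 6, with a median log2 ratio of -0.69, and 5 of them were at least 2-fold lower. Of 81 measured ribosomal protein genes 80 were lower, with a median of -0.81, and 14 at least 2-fold. Over all 11975 genes with at least 20 UMIs the median was -0.08, with 467 at least 2-fold lower (3.90%) and 447 at least 2-fold higher (3.73%). The same lists were lower in HET in subcluster 2, with medians of -0.69 for oxidative phosphorylation and -0.73 for ribosomal proteins. In subcluster 7 the medians were nearer 0, at -0.28 with 14 of 73 higher in HET and -0.35 with 11 of 81 higher, and 0 and 1 members were at least 2-fold lower. Over all genes in 7, 452 of 11383 were at least 2-fold lower in HET (3.97%). The mature myelin genes had a median of -0.15 and 0 of 18 members 2-fold apart, in a list too short for a share that low among all genes to tell it apart from them. The largest difference upward was Mobp, a myelin structural protein, at 0.67, and downward Gal3st1, which makes the myelin lipid sulfatide, at -0.81. Mbp was at 3566 CPM in the HET nuclei of 6 and 2823 CPM in the WT nuclei of 8. The transcription factors of the lineage had a median of -0.39, from Olig2 at 0.67 to Sox8 at -0.96, and 0 of 10 were 2-fold apart. Genes of cholesterol synthesis had a median of 0.13 over 21 genes and genes of the axon-glia contact one of 0.02 over 15, with 0 members of either list 2-fold apart. Scn1a itself, the mutated gene, was at 94.7 CPM in the HET nuclei of 6 and 98.9 CPM in the WT nuclei of 8 (log2 ratio over all nuclei -0.12, -0.41 to 0.17).

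The genes on either side of the gap also differed in structure. The 38 genes lower in 6 were short, with a median length of 3.96 kb from start to end in the GENCODE annotation of GRCm38 (quartiles 3.11 and 6.30 kb), against 59.5 kb for all genes measured (24.9 and 124.6 kb). The list held 37 protein-coding genes, 14 of them for ribosomal proteins and 5 for oxidative phosphorylation, against 3426, 77 and 60 of the 3665 genes measured. The 34 genes higher in 6 had a median of 114.3 kb, and 12 of them were annotated as antisense and 3 as long intergenic RNA, against 115 and 59 of the 3665 genes measured. The library difference in subcluster 2 had a like shape, with a median of 4.40 kb for the 49 genes lower in HET and 18 antisense genes among the 37 higher, though those 37 had a median length of 37.5 kb. How reads were assigned to an antisense gene or to its overlapping partner was not checked here.

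Against subcluster 2 of the same library, 6 and 8 looked much alike. In HET, 107 of 3911 genes were at least 2-fold higher in 6 than in 2 (2.74%) and 171 at least 2-fold lower (4.37%). In WT, 106 of 4215 genes were at least 2-fold higher in 8 than in 2 (2.51%) and 176 at least 2-fold lower (4.18%). With all oligodendrocyte nuclei of the library outside 6 and 8 as the reference, subcluster 7 included, 4 of 5599 genes were higher (0.0714%) and 95 lower (1.7%) in 6, and 42 of 4825 higher (0.87%) and 143 lower (2.96%) in 8. The contrasts against 2 share neither nuclei nor a library. Over the 3663 genes measured in both, the log2 ratios had a Pearson correlation of 0.92 and a Spearman correlation of 0.83 across genes, which are not independent replicates and were all open to the clustering. Among those genes, 77 were at least 2-fold higher in both, which is 81.9% of the 94 genes higher in 6 and 78.6% of the 98 genes higher in 8. Other pairs of subclusters from different libraries, each set against its own 2, gave high values as well: the Pearson correlation was 0.85 for 7 in HET with 8 in WT, 0.89 for 7 in HET with 7 in WT and 0.73 for 6 in HET with 7 in WT. In the pair of 6 and 8, a further 129 genes were at least 2-fold lower in both, 80.6% of the 160 genes lower in 6 and 78.2% of the 165 lower in 8.

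**Figure D3:**
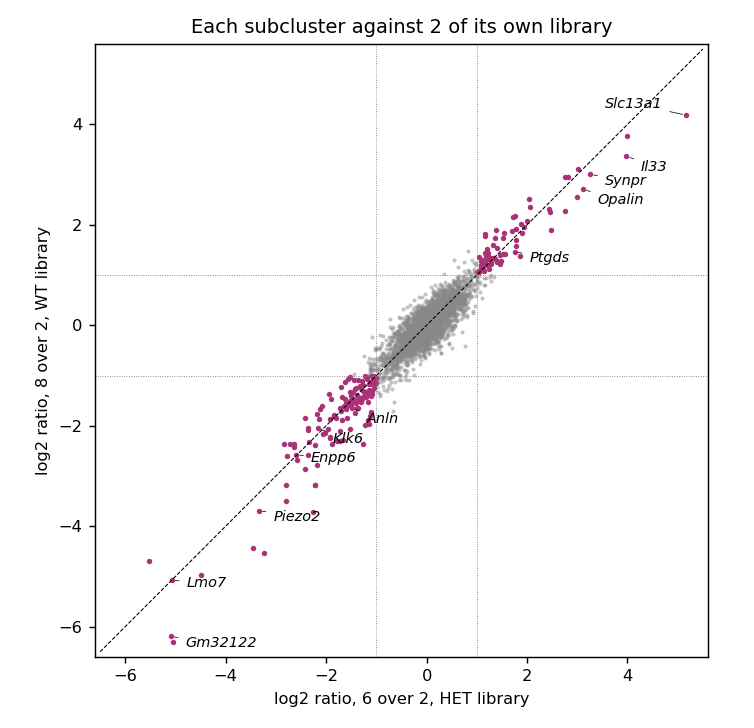
Each point is 1 of 3663 genes, with its log2 ratio of 6 over 2 in the HET library (horizontal axis) and of 8 over 2 in the WT library (vertical axis). Purple points are the 77 genes at least 2-fold higher and the 129 at least 2-fold lower in both, dotted lines mark 2-fold and the dashed line equality, and the genes lie along the line from Gm32122 and Lmo7 to Il33 and Slc13a1.

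Among the genes shared by 6 and 8, those on the high side included several with a known place in mature oligodendrocytes. Il33, an alarmin cytokine (chr19:29925114-29960718 in GRCm38, plus strand), was at 275 CPM in the HET nuclei of 6 and 425 CPM in the WT nuclei of 8, but at 17.4 CPM in 2 of HET and 41.2 CPM in 2 of WT. Its log2 ratio was 3.98 in HET (3.56 to 4.43) and 3.37 in WT (3.08 to 3.66). Opalin (chr19:41061710-41077113, minus strand) was at 302 and 384 CPM in 6 and 8 and at 34.9 and 58.9 CPM in 2, with log2 ratios of 3.12 (2.81 to 3.44) and 2.70 (2.46 to 2.96). In the minority nuclei both genes stood at the level of their subcluster and not of 2: Il33 was at 315 CPM in the WT nuclei of 6 and 491 CPM in the HET nuclei of 8, and Opalin at 347 and 357 CPM. The clustering placed these nuclei by their expression, so this is a description only.

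An Opalin UMI was found in 46.6% of the HET nuclei of 6 and 55.2% of the WT nuclei of 8, against 10.6% and 15.8% in 2 and 7.70% and 10.7% in neurons. Il33 gave 37.1% and 51.3%, against 5.2% and 9.24% in 2 and 6.69% and 6.77% in neurons. With nuclei thinned to 1000 UMIs, Opalin was in 25.4% and 30.2% of nuclei in 6 and 8 and in 3.47% and 5.65% in 2, and Il33 in 21.4% and 30.2% against 1.54% and 3.03%. At either depth the shares in 6 and 8 were above those in 2 and in neurons. Subcluster 7 was at least as high without thinning, with an Opalin UMI in 63.2% of HET and 85.7% of WT nuclei and an Il33 UMI in 51.5% and 62.4%, so neither gene was particular to 6 and 8.

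The other leading genes on the high side were more varied. The sulfate transporter gene Slc13a1 had log2 ratios of 5.17 in HET (4.47 to 5.96) and 4.18 in WT (3.43 to 5.05), though it was itself at 213 CPM in 6 and 100.3 CPM in 8. Kirrel3, a cell adhesion gene, was at 859 and 707 CPM in 6 and 8 and at 107 and 81.3 CPM in 2. Synpr, a synaptic vesicle membrane protein, was at 117 and 118 CPM against 12.2 and 14.7 CPM, and Srgap1 was at 303 and 309 CPM against 43.2 and 39.7 CPM. The remaining leading genes were C030029H02Rik, Fbxw15, Pakap and Pakap.1, and the last 2 share a symbol, so that reads may be split between them.

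On the low side stood genes that subcluster 2 carried and 6 and 8 nearly lacked. Lmo7, a LIM domain scaffold, was at 3.12 CPM in the HET nuclei of 6 and 2.84 CPM in the WT nuclei of 8, against 104.9 and 95.7 CPM in 2. Piezo2, a mechanically gated channel, was at 14.6 and 14.2 CPM against 147 and 183 CPM. Hmcn1, an extracellular matrix gene, rested on 5 and 4 UMIs in 6 and 8, against 85.7 and 149 CPM in 2. Gm32122, 6030407O03Rik, Art3, Ror1, Dlc1, A330072L02Rik and Aff3 made up the rest of the 10 lowest, with Aff3 at 57.2 and 39.7 CPM against 396 and 359 CPM. Together the 129 genes summed to 11821 CPM in the HET nuclei of 6 and 10782 CPM in the WT nuclei of 8, and to 36078 and 34657 CPM in 2. The minority nuclei did not enter the choice of these genes, but the clustering placed them in 6 or 8 by their expression. Their sums, 13086 CPM in 6 of WT and 11345 CPM in 8 of HET, are therefore a description and no check. The 77 high genes summed to 36866 CPM in 6 of HET, 36523 CPM in 8 of WT, 34279 CPM in 6 of WT and 37227 CPM in 8 of HET, and to 13372 and 12700 CPM in 2.

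The lists of mature oligodendrocyte states pointed the same way in both contrasts. The Ptgds list of 8 genes had a median log2 ratio of 1.08 in 6 against 2 of HET and 1.08 in 8 against 2 of WT, with 4 and 5 members at least 2-fold higher and 1 at least 2-fold lower in each. Over all genes with at least 20 UMIs, 647 of 12241 were at least 2-fold higher in 6 than in 2 (5.29%) and 602 lower (4.92%), and 601 of 12148 higher in 8 than in 2 (4.95%) and 630 lower (5.19%). In 7 against 2 of HET the Ptgds list had a median of 1.11 and the Klk6 list, described next, one of -1.39. Ptgds was at 2741 CPM in the HET nuclei of 6 and 4782 CPM in the WT nuclei of 8, against 812 and 1731 CPM in 2 (log2 ratios 1.76, 1.69 to 1.83, and 1.47, 1.42 to 1.52). Qdpr, which recycles tetrahydrobiopterin, had ratios of 1.21 and 1.19, and Jph4, a junctophilin, 1.42 and 1.08. In each contrast 6 members of the Ptgds list had a log2 ratio above 0 and 2 members one below 0. The member with the smallest ratio was Anln, which encodes the cytoskeletal protein anillin, at 290 and 205 CPM against 813 and 645 CPM in 2. The Klk6 list of 7 genes had medians of -0.94 and -1.12, with 2 and 4 members at least 2-fold lower and Sgk1 its only member above 0. Klk6 itself (chr7:43824499-43832030, plus strand) was at 27.6 and 40.2 CPM in 6 and 8 and at 123 and 167 CPM in 2. A Klk6 UMI was found in 5.68% and 9.45% of nuclei of 6 and 8 and in 32.2% and 41.5% in 2, while the deeper neurons gave 5.75% and 6.24%. With nuclei thinned to 1000 UMIs the shares were 2.58% and 3.98% in 6 and 8, 11.1% and 15.7% in 2 and 0.820% and 0.880% in neurons.

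**Figure D4:**
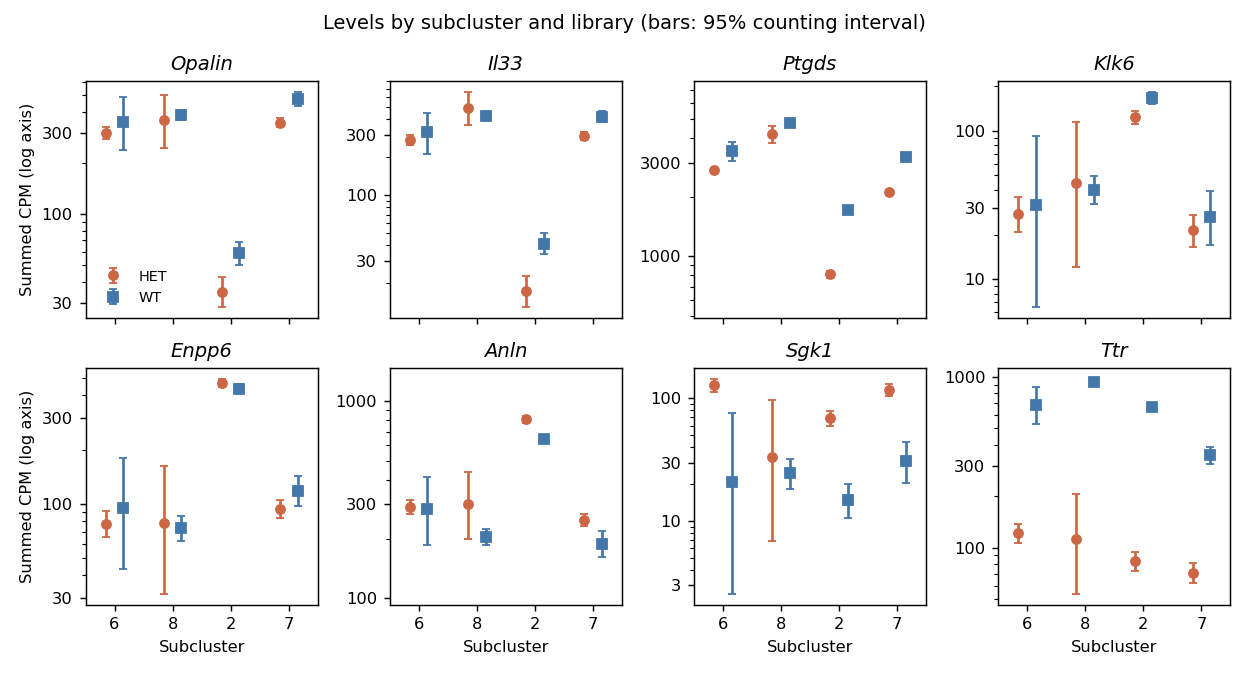
Summed CPM (vertical axes, log scale) of 8 genes in subclusters 6, 8, 2 and 7 of the HET library (orange circles) and the WT library (blue squares), with exact 95% Poisson intervals as bars. Opalin, Il33 and Ptgds are higher and Klk6, Enpp6 and Anln lower in 6 and 8 than in 2 of either library, while Sgk1 (127 CPM in 6 of HET and 24.6 CPM in 8 of WT) and Ttr (121 and 930 CPM) separate by library, except that the 8 HET point of Sgk1 rests on 3 UMIs.

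The other lists differed less from 2. The 18 mature myelin genes had medians of -0.16 in 6 of HET and 0.09 in 8 of WT, and Opalin was the only one at least 2-fold apart in either. Mal, a membrane protein of myelin, was at 560 and 753 CPM against 283 and 379 CPM, with log2 ratios of 0.98 and 0.99. Hapln2, a link protein of the node of Ranvier, was lower, with -0.60 and -0.65. The list of newly formed oligodendrocytes went opposite ways, with a median of 0.35 in 6 of HET and 4 of 6 measured genes higher, and of -0.30 in 8 of WT and 2 of 6 higher. Its member with the largest ratio in HET was Itpr2, an intracellular calcium channel, at 1.2. Of its other members, Enpp6 (chr8:46986887-47096762, plus strand) was at 77.5 and 72.9 CPM in 6 and 8 and at 469 and 436 CPM in 2, whereas Bcas1 was slightly higher, with log2 ratios of 0.42 and 0.37. Genes of oxidative phosphorylation had medians of 0.51 and 0.49, and 69 and 71 of 73 were higher in 6 and 8 than in 2. All 81 measured ribosomal protein genes were higher, with medians of 0.48 and 0.56.

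Beside these, the 18 neuronal markers summed to 3890 CPM in the HET nuclei of 6 and 3196 CPM in the WT nuclei of 8, against 2644 and 2231 CPM in 2 and 19489 and 21750 CPM in HET and WT neurons, and 18 of 18 had a UMI in each of these groups. Ependymal markers, Ttr among them, summed to 149 CPM in 6 of HET and 965 CPM in 8 of WT, against 100.02 and 701 CPM in 2. Astrocyte markers summed to 333 and 344 CPM against 382 and 307 CPM, and microglial markers to 153 and 289 CPM against 130 and 227 CPM. No defining marker of neurons or astrocytes was at 0 in these groups. The median deposited doublet score was 0.0237 in 6 of HET and 0.0932 in 8 of WT, and 0.10 and 0.116 in 2. The part of RNA from other cells in the gene values was not tested.

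A few genes behaved differently in the 2 contrasts. The 5 with the largest difference in favour of 6 were Greb1l, Dlc1, Hmcn1, Ebf1 and Gm32122, and the 5 in favour of 8 were Nckap5, Rlim, 6030407O03Rik, Chmp3 and Ints8. Several of these rest on few UMIs or are near 0 in both. Dlc1, a GTPase-activating tumour suppressor, had log2 ratios of -3.24 in HET (-3.56 to -2.93) and -4.54 in WT (-5.08 to -4.05), both far below 2. Ebf1, a transcription factor, was at 57.7 CPM in 6 and 34.2 CPM in 2 of HET (0.76, 0.35 to 1.16) but at 40.2 CPM in 8 and 53.4 CPM in 2 of WT (-0.41, -0.81 to -0.01). The counting intervals of Ebf1 did not overlap, but the gene was picked for the size of this difference, so this is no test. Chmp3, a membrane scission subunit, was at -0.47 in HET (-0.85 to -0.10) and 0.33 in WT (-0.00 to 0.65). None of these ratios has a replicate.

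Subcluster 7 lay on the same side as 6 and 8 for most of these genes. In 7, the 77 high genes summed to 40411 CPM in HET and 39443 CPM in WT, and the 129 low genes to 12646 and 13040 CPM, close to the values of 6 and 8. In HET, no more than 2 of 3911 genes were at least 2-fold higher in 6 than in 7 (0.0511%) and 22 at least 2-fold lower (0.563%). In WT, 140 of 2676 genes were at least 2-fold higher in 8 than in 7 (5.23%) and 38 lower (1.42%). This reference was chosen after the values were seen. Across the 2637 genes measured in both, the log2 ratios had a Pearson correlation of 0.76 and a Spearman correlation of 0.60. Of the 14 genes lower in 6 and the 37 lower in 8 among them, 12 were lower in both.

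The genes that 7 held above both 6 and 8 were in part those of earlier stages. Of 8 measured genes of the newly formed list, 7 were higher in subcluster 7 than in 2 of HET, but Enpp6 was lower (log2 ratio -2.32). The median deposited doublet score of subcluster 7 was 0.076 in HET and 0.182 in WT, against 0.0237 in 6 of HET and 0.0932 in 8 of WT. The part of doublets in these values was not tested. Tnr, an extracellular matrix protein of precursors and young oligodendrocytes, was at 59.8 CPM in 6 and 289 CPM in 7 of HET, and at 35.5 CPM in 8 and 205 CPM in 7 of WT (log2 ratios -2.27, -2.56 to -1.99, and -2.53, -2.93 to -2.13). Nckap5 was at 33.8 against 250.5 CPM in HET and at 53.5 against 435.5 CPM in WT. Tcf7l2, a Wnt pathway factor of newly formed oligodendrocytes, had log2 ratios of -0.97 and -1.53, and the kinase gene Fyn -0.82 and -1.11. Over all genes with at least 20 UMIs, 191 of 12183 were at least 2-fold lower in 6 than in 7 of HET (1.57%). In WT, 318 of 10862 such genes were at least 2-fold lower in 8 than in 7 (2.93%). The list of newly formed oligodendrocytes had medians of -1.03 over 8 measured genes in HET and -1.44 over 6 in WT, with every measured member lower in 6 or 8 and 4 of them at least 2-fold in each. Gpr17, a receptor of that stage, was at 5.2 CPM in 6 and 2.84 CPM in 8, and at 17.0 and 13.2 CPM in 7. Its levels in 6, in 8 and in 7 of WT rest on few UMIs. On the high side, ribosomal protein genes had medians of 0.58 in HET and 1.07 in WT and genes of oxidative phosphorylation 0.54 and 1.04. Neuronal markers were higher too, with medians of 0.48 and 0.81 and sums of 2663 CPM in 7 of HET and 1943 CPM in 7 of WT, and their part was not tested.

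A last comparison asked which subcluster of the other library each subcluster resembled once the libraries were centred. Each profile was the log2 ratio of a subcluster to all oligodendrocyte nuclei of its own library over 8036 genes. Profiles were compared for 2, 6 and 7 in HET and for 2, 7 and 8 in WT, not for the minority nuclei of 6 and 8. The profile of 6 in HET had a Pearson correlation of 0.76 with that of 8 in WT, 0.13 with that of 7 in WT and -0.42 with that of 2 in WT. Subcluster 2 correlated best with itself across libraries, at 0.86, and 7 with itself at 0.62, while 7 in HET and 8 in WT gave 0.53. Centring ties the profiles of a library to one another, since they must balance, so these are descriptions across genes.

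Nuclei taken one at a time gave a like picture. Each nucleus was thinned to 1000 UMIs and scored by likelihood against subclusters of the other library, after the same centring. HET nuclei could go to 2, 7 or 8 of WT, and WT nuclei to 2, 6 or 7 of HET. The minority groups, 6 of WT and 8 of HET, were not offered. A HET nucleus of 6 therefore could not match 6 of WT, nor a WT nucleus of 8 match 8 of HET. Of 827 HET nuclei of 6, 748 were closest to 8 of WT (90.4%, exact 95% interval 88.2 to 92.4), 73 to 2 and 6 to 7. In the other direction 588 of 825 WT nuclei of 8 were closest to 6 of HET (71.3%, 68.1 to 74.3), 229 to 7 (27.8%) and 8 to 2. By this score the relation of 6 to 8 was closer than that of either to 2, and 8 was divided between 6 and 7. The clustering had already set these nuclei apart from 2 by the same expression. The low shares closest to 2 are therefore a description and no test. Subcluster 7 did not match one to one: 493 of 730 HET nuclei of 7 were closest to 8 of WT (67.5%) and 171 to 7 of WT (23.4%), whereas 124 of 133 WT nuclei of 7 were closest to 7 of HET (93.2%). Of the minority nuclei, 34 of 35 HET nuclei of 8 were closest to 8 of WT, and the 39 WT nuclei of 6 were divided between 6 of HET, with 17, and 7 of HET, with 21.

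**Figure D5:**
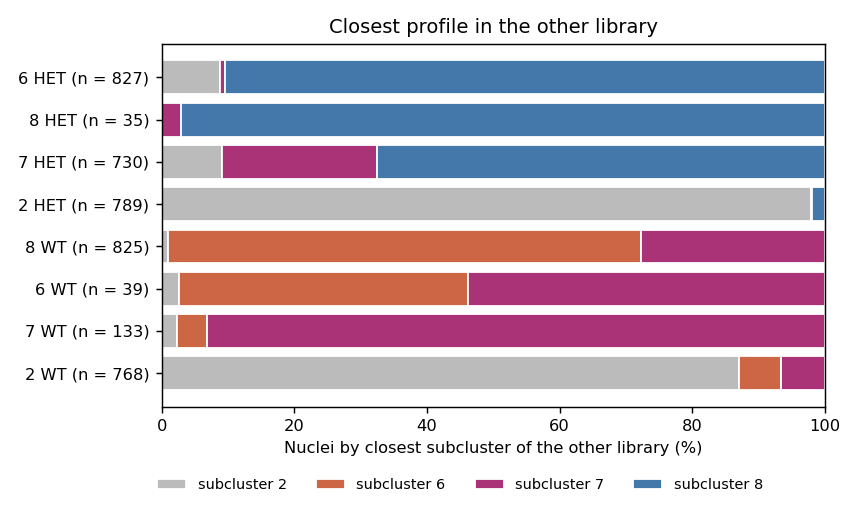
For each subcluster and library (vertical axis, with the number of nuclei) the share of nuclei (horizontal axis, percent) by the subcluster of the other library whose centred profile was closest, and colours mark that subcluster. Nuclei of 6 in HET went to 8 in WT in 90.4% of cases, and nuclei of 8 in WT to 6 in HET in 71.3% and to 7 in HET in 27.8%.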

How the data were processed

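Brainstem nuclei of 1 WT and 1 HET mouse were profiled on the 10x Genomics droplet platform. The authors aligned reads to mm10 and counted UMIs with Cell Ranger and used Seurat 4.1 for filtering, SCTransform normalisation and clustering, per the labels and the methods. The authors stated a minimum of genes per nucleus and a maximum of mitochondrial counts as filters, and mitochondrial genes are not in the deposited table. The deposited table holds raw counts, whole UMIs per gene and nucleus, for 25556 genes, with an annotation of clusters, percent values for mitochondrial, ribosomal and haemoglobin counts and a doublet score, which the authors computed. The doublet caller is not given in the sources used here. Cluster names and subcluster numbers were used as deposited and nothing was reclustered.

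UMIs were summed per subcluster and library (1922844 in the HET nuclei of 6, 2113557 in the WT nuclei of 8, 95219 and 89558 in the minority nuclei) and divided by the sum to give CPM. Log2 ratios carry exact 95% intervals, from the binomial distribution for ratios and shares (Clopper-Pearson) and from Poisson for levels. A sum of 0 was set to 3 UMIs. Genes needed 200 UMIs in the 2 sums together, members of gene lists 20, and a 2-fold difference counted as apart. No p-value was computed, since each genotype has 1 library. Nuclei were thinned to 1000 UMIs at random, and no oligodendrocyte nucleus had fewer than 1463. The closest subcluster of the other library was the one with the highest multinomial likelihood, with 0.5 added to each count and the ratio of the 2 libraries' oligodendrocyte profiles applied. It was sought among 2, 7 and 8 of WT for HET nuclei and among 2, 6 and 7 of HET for WT nuclei. The steps were checked on simulated counts. Named genes were Mog, Mag and Scn1a, the 10 highest and lowest of 6 against 8, the 10 highest and lowest shared by the contrasts against 2, the 5 each way that differed most between them, and list members with the largest and smallest ratios or the highest level. Other genes named are list members or were chosen after their values were seen. The members, lists and comparisons were chosen with earlier results of these data known. Positions are from GENCODE vM21 (GRCm38), where 229 of 231 named genes had a single entry. Python 3.11.15 with numpy 2.4.6, scipy 1.17.1, pandas 2.3.3 and matplotlib 3.10.9 was used.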

Additional observations from a re-analysis of the deposited data

How the results depend on the processing

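No paired analysis was possible because each genotype has 1 library, and no replicate could be left out. Of 118 alternative values of a count of genes, a share or a correlation, 28 moved the count by over 1.5 times or the share out of its counting interval. The counts of genes depended on the UMI minimum and, against 2, on the reference. With a minimum of 100 UMIs, 79 genes were higher and 95 lower in 6 than in 8, 82 and 135 in HET than in WT in subcluster 2, 175 higher in 6 than in 2, and 174 higher and 283 lower in 8 than in 2. With 50 UMIs these counts were 176 and 209, 184 and 260, 324 higher and 366 lower in 6 than in 2, and 296 and 414 in 8 than in 2. Thinning each nucleus to 1000 UMIs, which leaves fewer UMIs per gene, gave 54 and 82 genes for 6 against 8 and 76 and 134 for HET against WT in 2. Setting the median ratio to 0 left 22 genes lower in 6 than in 8, so that the split of 34 higher and 38 lower became 46 and 22, and for HET against WT in subcluster 2 the split of 37 and 49 became 50 and 34. For 6 against 8 the balance also turned without the highest doublet scores (44 and 42). It turned too with ribosomal protein genes left out of both the totals and the genes counted (34 and 26). By construction, that setting drops the 14 ribosomal protein genes among the 38 lower ones. Which side held more genes is therefore not settled. HET nuclei of 6 against WT nuclei of 8 alone gave 59 lower. With all other oligodendrocyte nuclei of the library, 7 included, as the reference, 4 genes were higher and 95 lower in 6, and 42 higher in 8. Among nuclei with at least 2000 UMIs, 6 held 29.1% of HET and 8 held 41.4% of WT oligodendrocyte nuclei. The correlation of the contrasts against 2 ranged from 0.818 to 0.920 over the alternatives chosen at the start and was 0.763 against 7, an alternative added after the data were seen. The share of nuclei of 6 closest to 8 stayed between 89.4% and 92.0%, and that of 8 closest to 6 between 69.8% and 73.6%. Of 60 list medians, 11 changed sign under some alternative, all of them at most 0.354 in size, and no ratio of a named gene past 2-fold changed sign. The cause of these shifts was not tested beyond the construction of each alternative. The shallow nuclei, with 24.9% of the HET nuclei of 6 and 29.3% of the WT nuclei of 8 under 2000 UMIs, limit what can be said of genes with few UMIs.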

Other observations

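Most measured heat shock genes were higher in 6 and 8 than in 2 of the same library. The heat shock list had median log2 ratios of 0.36 in 6 of HET, with 14 of 15 measured genes higher, and 0.53 in 8 of WT, with 15 of 16 higher, against medians of 0.07 and 0.06 over all genes. In 8 of WT, Cryab was the member with the largest ratio, at 1.02, and in 6 of HET it was Hspa5, a chaperone of the endoplasmic reticulum, at 0.82. The immediate early genes had medians of 0.91 over 5 measured genes and 0.73 over 6, with summed levels of 97.3 CPM in 6 and 49.5 CPM in 2 of HET and of 143 and 89.4 CPM in WT. The list of reactive oligodendrocyte genes had medians of 0.49 with 6 of 9 genes higher and 0.58 with 7 of 11 higher. Its member with the largest ratio was Il33, which the Ptgds list also holds, and those with the smallest were Ifi27 at -0.69 in HET and Cdkn1a at -1.72 in WT. Between 6 and 8 these lists were lower in 6, with medians of -0.43 for heat shock, -0.38 for immediate early and -0.47 for reactive genes, and in HET against WT of subcluster 2 the medians were -0.58, -0.74 and -0.70. In 7 against 2 of HET the medians were -0.03 for heat shock, 0.84 for immediate early and 0.32 for reactive genes. The higher medians of the immediate early and reactive lists were thus not particular to 6 and 8.

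Nuclear long non-coding RNAs summed to 171360 CPM in the HET nuclei of 6 and 152744 CPM in the WT nuclei of 8, against 167903 and 164368 CPM in 2, and Pvt1 had log2 ratios over 2 of 2.48 and 1.89 while Kcnq1ot1 had -1.43 and -1.50. In 7 against 2 of HET the log2 ratios were 2.37 for Pvt1 and -1.18 for Kcnq1ot1. The precursor list had a median of 0.45 over 9 genes in 6 of HET and 0.11 in 8 of WT. Endothelial markers summed to 42.1 CPM in 6 and 22.3 CPM in 2 of HET and to 93.2 and 59.6 CPM in WT, over the 5 and 6 markers measured. Mural and fibroblast markers summed to 36.4 and 35.2 CPM in HET and to 57.7 and 48.6 CPM in WT, over 4 markers.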
